A study of Mus musculus with 6 samples.

Results

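The genes of pyruvate entry into mitochondria and of the citric acid cycle were followed in hematopoietic stem cells (HSCs) of control and IGF1-treated mice. The 34 genes were taken by symbol, without regard to their values, and cover the pyruvate carrier, the pyruvate dehydrogenase complex with its kinases and phosphatase, pyruvate carboxylase, the enzymes of the cycle and a few enzymes that feed it. All 34 were among the 21878 gene symbols of the deposited tables, and all 34 had at least 1 FPKM (fragments per kilobase of gene, scaled to the depth of the library, a level already scaled for length) in at least 3 libraries, as did 10449 genes in all, which were the genes tested. With all 6 libraries, Suclg2, Idh3a and Dlat were lower and Mpc2 was higher in HSCs of IGF1-treated mice. Most of the other members had lower means after IGF1, by amounts that turned on control replicate 2, which lay near the IGF1 libraries.

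Pyruvate made in the cytosol crosses the inner mitochondrial membrane through a carrier of MPC1 and MPC2 and is turned into acetyl-CoA by the pyruvate dehydrogenase complex. Kinases of the PDK family switch that complex off by phosphorylation and a phosphatase switches it on again, so that the complex sets how much carbon from glucose is burned. The citric acid cycle then oxidizes acetyl-CoA and passes electrons to the respiratory chain. Quiescent HSCs are known for relying on glycolysis, with PDK activity holding pyruvate back from mitochondria, and for engaging mitochondrial oxidation when they are activated.

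The groups were 3 libraries of vehicle control mice and 3 libraries of mice given IGF1, all labelled WT, with C57BL/6 as the strain that the methods of the study name for WT mice. The IGF1 mice had received recombinant mouse IGF1 subcutaneously at 200 µg/kg, and BM HSCs were sorted at day 1 as CD34-Flk2-Lineage-Sca1+c-Kit+ cells. The age of the mice, and whether cells of several mice were pooled for a library, were not given in the sources used here. The labels conflict on the treatment, since the extraction text names irradiation for the treated mice while the treatment label and the title name IGF1, which was followed. The values came from bulk RNA, so that fewer cells of a type and less RNA per cell cannot be told apart.

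Depth, recovered from the steps in which the values of a gene rise, was 11206800 to 15973834 reads per library on the listed genes, and each member had between 64 and 12361 reads in each library. The control libraries were not alike. Among the tested genes, control replicate 2 was more than 2-fold apart from control replicates 1 and 3 in 2504 and 2510 genes and from each IGF1 library in 94 to 113, while control replicates 1 and 3 differed so in 0 genes and the IGF1 libraries from each other in 2 to 5. The squared difference in reads relative to counting noise averaged 1.52 per gene between control replicates 1 and 3 and 1.69 to 1.89 between IGF1 libraries, where counting alone gives about 1, so these pairs differed slightly more than sampling allows and were kept as separate replicates. The labels do not say that the libraries of a group came from separate mice, and p-values then measure only the spread between these libraries, which may be technical. The counts, and the log2 fold changes of several members, are therefore given with and without control replicate 2.

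The label of the cells was checked against marker genes. Stem cell genes such as Hlf, Procr and Mecom were above 0 in every library, but so were the genes of the markers that the sort excludes. Cd34 was at 640, 265 and 634 FPKM in control replicates 1, 2 and 3 and at 231, 238 and 230 FPKM in the IGF1 libraries. Flt3, which encodes Flk2, was at 117, 172 and 117 FPKM in the controls and at 187, 188 and 183 FPKM after IGF1. Of the genes of other cells, Mpo, a granule gene of myeloid progenitors, was between 1613 and 1705 FPKM in all 6 libraries, while other myeloid genes differed between libraries in both directions. The granule gene Elane was at 92.8, 576 and 92.5 FPKM in the controls and at 692 to 709 FPKM after IGF1, and Ltf, a gene of later neutrophils, at 13.2, 0.44 and 13.6 FPKM in the controls and at 0.097 to 0.24 FPKM after IGF1.

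Of the 34 members, 30 were matched in a table of RefSeq promoters (build GRCm38.p6), which does not hold entries for Pdp1, Me2, Sdhc and Idh3a. The 150 bases upstream of the start are printed for Dlat and Suclg2, the members called lower with an entry, and for Pdha1, whose control replicates 1 and 3 were 4.33-fold above IGF1, the largest such fold among the subunits of pyruvate dehydrogenase. They lie on the minus strand at chr9:50659781-50659930, chr6:95718847-95718996 and chrX:160138431-160138580, and overlap no annotated exon of GENCODE vM21. Capitals mark GGGCGG (SP1), CCAAT (NF-Y) or the same letters read on the other strand.
Dlat: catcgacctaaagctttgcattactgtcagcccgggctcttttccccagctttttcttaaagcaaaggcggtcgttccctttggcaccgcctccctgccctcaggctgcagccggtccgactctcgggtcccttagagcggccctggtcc
Suclg2: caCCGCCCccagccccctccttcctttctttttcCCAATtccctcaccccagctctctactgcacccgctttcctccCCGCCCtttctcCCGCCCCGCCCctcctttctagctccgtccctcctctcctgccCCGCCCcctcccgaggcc
Pdha1: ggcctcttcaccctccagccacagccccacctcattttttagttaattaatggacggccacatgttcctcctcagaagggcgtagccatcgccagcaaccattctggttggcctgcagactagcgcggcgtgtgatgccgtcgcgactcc
The Suclg2 window holds 5 copies of the SP1 letters and 1 of the NF-Y letters, and the windows of Dlat and Pdha1 hold none. Over the 250 bases upstream of the start, on both strands, CCAAT occurred in 17 of 30 member promoters (56.7%), in 37.1% of 8142 promoters of tested genes and in 34.5% of all 27025 promoters. GGGCGG occurred in 21 of 30 (70.0%), against 60% and 32.9%. TGACGTCA (CRE) occurred in 3 (Mdh2, Ogdh and Pdpr) against 2.87% and 1.62%, and CACGTG (E-box) in 3 against 8.74% and 6.05%. CCGGAAG (ETS) occurred in 4 (13.3%) against 15.4% and 7.05%, GCGCATGC (NRF1) in 1 (3.33%, Sdhb) against 5.0% and 2.32%, and AAGGTCA (ERR) in 0 against 2.73% and 4.05%. None of these strings contains another. A match describes the letters of a window and not a bound site.

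When IGF1 and vehicle HSCs were compared, 3 members (8.82%) were called lower and 1 member (2.94%) was called higher, at a fold change over 2 and a limma adjusted p under 0.05. Among all tested genes 4.63% (484) were called lower and 1.98% (207) higher by the same rule. That balance depended on the scaling, with 319 lower and 304 higher after quantile normalization and 210 lower and 392 higher at the 75th percentile. The median log2 fold change, computed throughout on log2(FPKM + 1), was -0.57 over the members and -0.18 over all tested genes. Of the members 29 lay below 0 and 5 above, against 6228 and 4221 of the 10449 tested genes. At an adjusted p under 0.05 with no threshold on the fold, 9 members (26.5%) were lower and 1 was higher, against 14.1% and 6.26% of tested genes. The IGF1 libraries were all below the 3 controls in 24 members (70.6%) and all above them in 1, and overlapped in 9, where 37.4% and 21.9% of tested genes were below and above.

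Without control replicate 2, 15 members (44.1%) were called lower and 1 higher, against 20.6% and 12.3% of tested genes. The added members were Pdha1, Pdhb, Dld, Pdk1, Pdk3, Pdp1, Cs, Idh1, Ogdh, Sucla2, Sdha and Me2. At a limma adjusted p under 0.05 alone, 9250 of 10449 tested genes and 28 of 34 members passed without control replicate 2. The calls without that library therefore rested mainly on the fold threshold. The IGF1 libraries lay below control replicates 1 and 3 in 28 members (82.4%) and above them in 3, against 55.2% and 36.7% of tested genes, and the median log2 fold change was -0.82 over the members and -0.25 over all genes. For the 15 members that were lower, control replicate 2 stood 60.2% to 96.3% of the way from the mean of the other controls to the IGF1 mean on the log2 scale, with a median of 76.1%. It was nearer the IGF1 mean in 25 of 34 members (73.5%) and in 77.3% of tested genes, so that in this respect the members were close to the rest of the transcriptome. Leaving out any other library, which keeps control replicate 2 in the fit, left 0 calls among all genes by limma, with 2982 to 3205 genes and 14 to 16 members at an unadjusted p under 0.05.

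**Figure D1:**
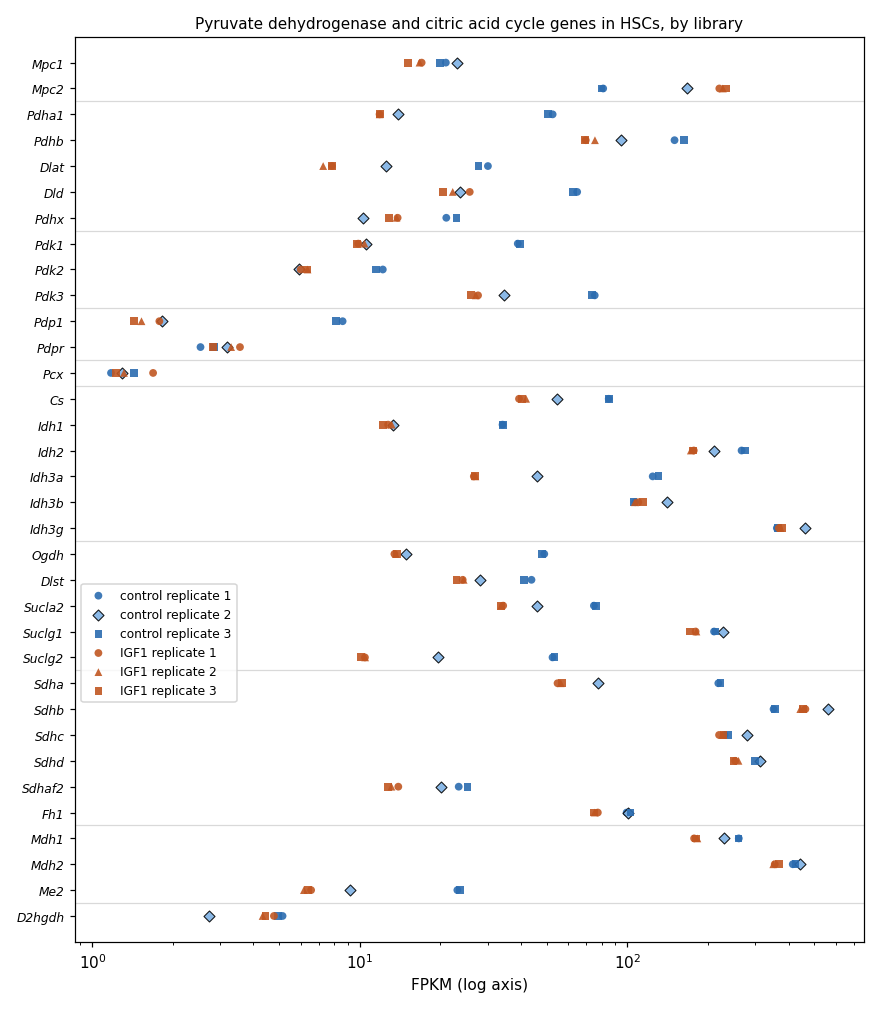
FPKM of each of the 34 genes (rows, in the order of the pathway, grey lines between roles) in each library on a log axis, with controls in blue, control replicate 2 as an outlined diamond, and IGF1 in orange. For Suclg2, Idh3a, Sdha and Pdha1 the IGF1 libraries form a tight cluster on the left, control replicates 1 and 3 lie well to the right and control replicate 2 lies in between, nearer the IGF1 cluster, while for Mpc2 the order is turned round.

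At the entry of pyruvate, the carrier subunits differed. Mpc2 was at 81.1, 167 and 80.0 FPKM in control replicates 1, 2 and 3 and at 220, 227 and 234 FPKM after IGF1, a log2 fold change of 1.14 ± 0.30 (SE, n = 3 per group, limma adjusted p = 0.0483). All IGF1 libraries were above all controls, and the mean after IGF1 was 2.82-fold that of control replicates 1 and 3 (log2 fold change without control replicate 2, 1.48 ± 0.03). Its partner Mpc1 was at 20.9, 23.0 and 19.9 FPKM in the controls and at 17.0, 16.7 and 15.1 FPKM after IGF1, a log2 fold change of -0.36 ± 0.11 with a limma adjusted p = 0.0556. The carrier is a dimer of both proteins, and by FPKM the Mpc2 transcript was the more abundant in every library. The call of Mpc2 did not hold with the trends of fold change on gene length and GC content removed, where its log2 fold change was 0.50, and Mpc1 then stood at 0.21 in place of -0.36.

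Pyruvate dehydrogenase decarboxylates pyruvate with a heterotetramer encoded by Pdha1 and Pdhb, passes the acetyl group to CoA on the core protein DLAT, and regenerates the lipoyl arms with DLD, which PDHX tethers. Dlat was at 30.1, 12.6 and 27.7 FPKM in the controls and at 7.86, 7.29 and 7.84 FPKM after IGF1, and fell with a log2 fold change of -1.41 ± 0.33 (SE, n = 3 per group, limma adjusted p = 0.0429). Pdha1 was at 52.5, 13.8 and 50.3 FPKM in the controls and at 11.8, 11.8 and 11.9 FPKM after IGF1, with a log2 fold change of -1.42 ± 0.50 and a limma adjusted p = 0.0720. For both genes every IGF1 library was below every control, but control replicate 2 of Pdha1 was only just above the IGF1 libraries. Without that library the log2 fold changes of Dlat and Pdha1 were -1.79 ± 0.06 and -2.03 ± 0.04.

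Pdhb was at 150, 94.6 and 163 FPKM in the controls and at 69.8, 75.6 and 69.4 FPKM after IGF1, and its log2 fold change of -0.88 ± 0.22 passed the limma test (adjusted p = 0.0459) without reaching 2-fold. Dld was at 64.8, 23.7 and 62.4 FPKM in the controls and at 25.7, 22.2 and 20.5 FPKM after IGF1, so that control replicate 2 fell inside the IGF1 range. Pdhx was at 21.0, 10.3 and 22.9 FPKM in the controls and at 13.8, 13.7 and 12.9 FPKM after IGF1, with control replicate 2 below all IGF1 libraries. Its log2 fold change was -0.32 ± 0.30 with that library and -0.67 ± 0.06 without it. The order of the subunits by FPKM was Pdhb, Dld, Pdha1, Dlat and Pdhx in each control, replicate 2 included, and Pdhb, Dld, Pdhx, Pdha1 and Dlat in each IGF1 library.

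The kinases that inactivate the complex had log2 fold changes below 0. Pdk1, a target of hypoxia signalling, was at 38.9, 10.5 and 39.6 FPKM in the controls and at 9.86, 10.4 and 9.74 FPKM after IGF1, a log2 fold change of -1.27 ± 0.50 with a limma adjusted p = 0.0864. Pdk3, the most abundant of the kinases by FPKM in every library, was at 75.4, 34.4 and 73.6 FPKM in the controls and at 27.6, 27.1 and 25.9 FPKM after IGF1, a log2 fold change of -1.07 ± 0.31 with a limma adjusted p = 0.0535. Neither passed the test with all 6 libraries, and both were called lower without control replicate 2. Pdk2 was at 12.2, 5.92 and 11.5 FPKM in the controls and at 6.01, 6.37 and 6.34 FPKM after IGF1, where control replicate 2 was below the IGF1 libraries. Its log2 fold change was -0.53 ± 0.26 with that library and -0.83 ± 0.06 without it. Pdk4, the kinase best known from fasting, is not a member and was at or under 0.33 FPKM in every library.

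On the side of reactivation, Pdp1, the catalytic phosphatase subunit, was at 8.61, 1.81 and 8.15 FPKM in the controls and at 1.78, 1.53 and 1.43 FPKM after IGF1. Its log2 fold change was -1.29 ± 0.48 with a limma adjusted p = 0.0801, and control replicates 1 and 3 were 5.31-fold above IGF1, the largest such fold among the members. The regulatory subunit Pdpr stayed between 2.54 and 3.56 FPKM in all libraries, with overlapping groups. Pyruvate carboxylase (Pcx), which makes oxaloacetate from pyruvate, had the lowest control mean of all members, at 1.30 ± 0.13 FPKM (SD, n = 3), against 1.41 ± 0.25 FPKM after IGF1. Transcripts of the kinases and of the catalytic phosphatase were thus both at lower FPKM after IGF1 than in control replicates 1 and 3.

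Citrate synthase (Cs), which joins acetyl-CoA to oxaloacetate, was at 85.1, 54.4 and 85.1 FPKM in the controls and at 39.3, 41.8 and 40.2 FPKM after IGF1, and its log2 fold change of -0.84 ± 0.19 passed the limma test (adjusted p = 0.0427) short of 2-fold. Of the mitochondrial NAD-linked isocitrate dehydrogenase, whose catalytic subunit is IDH3A, Idh3a was at 124, 46.1 and 131 FPKM in the controls and at 26.6, 27.0 and 26.8 FPKM after IGF1. It fell with a log2 fold change of -1.72 ± 0.40 (SE, n = 3 per group, limma adjusted p = 0.0430), and the means of control replicates 1 and 3 and of IGF1 were 4.75-fold apart (log2 fold change without control replicate 2, -2.21 ± 0.04). The regulatory subunits Idh3b and Idh3g had smaller log2 fold changes. Idh3b was at 107, 140 and 105 FPKM in the controls and at 110, 106 and 115 FPKM after IGF1, and Idh3g at 362, 459 and 364 FPKM in the controls and at 368, 373 and 378 FPKM after IGF1. Their log2 fold changes were -0.08 ± 0.14 and -0.07 ± 0.15, with overlapping groups, and were above 0 without control replicate 2 and with scaling to the 75th percentile. With quantile normalization they were -0.099 and -0.62, and Idh3g then passed an adjusted p under 0.05 by limma (0.0488), short of 2-fold.

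The NADP-linked enzymes make NADPH in the cytosol (Idh1) and in mitochondria (Idh2). Idh1 was at 34.1, 13.3 and 34.1 FPKM in the controls and at 12.7, 13.1 and 12.2 FPKM after IGF1, a log2 fold change of -0.93 ± 0.37 with a limma adjusted p = 0.0866. Idh2 was at 267, 210 and 275 FPKM in the controls and at 177, 172 and 176 FPKM after IGF1, a log2 fold change of -0.50 ± 0.14 with a limma adjusted p = 0.0521. In both genes all IGF1 libraries were below all controls, but for Idh1 control replicate 2 was 95.4% of the way to the IGF1 mean.

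The oxoglutarate dehydrogenase complex is built like pyruvate dehydrogenase and shares DLD with it. Ogdh was at 48.9, 14.9 and 47.9 FPKM in the controls and at 13.5, 13.6 and 13.8 FPKM after IGF1, with a log2 fold change of -1.21 ± 0.45 and a limma adjusted p = 0.0797. Dlst, the core subunit, was at 43.8, 28.0 and 41.1 FPKM in the controls and at 24.2, 24.4 and 23.0 FPKM after IGF1, with a log2 fold change of -0.61 ± 0.18 and a limma adjusted p = 0.0553. Control replicate 2 was the lowest control for both. With length and GC trends removed, the log2 fold changes of Ogdh and Dlst were -1.24 and -0.071.

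Succinyl-CoA ligase pairs the common subunit SUCLG1 with either SUCLG2, which makes GTP, or SUCLA2, which makes ATP. Suclg2 had the largest fall of all members, from 52.5, 19.6 and 53.4 FPKM in the controls to 10.4, 10.5 and 10.1 FPKM after IGF1, a log2 fold change of -1.79 ± 0.39 (SE, n = 3 per group, limma adjusted p = 0.0409). Without control replicate 2 it was -2.25 ± 0.04. Sucla2 was at 74.9, 45.9 and 76.2 FPKM in the controls and at 34.3, 33.8 and 33.6 FPKM after IGF1, and its log2 fold change of -0.90 ± 0.21 passed the limma test (adjusted p = 0.0430). The common subunit Suclg1 was at 211, 227 and 213 FPKM in the controls and at 180, 181 and 171 FPKM after IGF1, a log2 fold change of -0.29 ± 0.10 with a limma adjusted p = 0.0732. The GTP-forming subunit was thus about 5.12-fold, and the ATP-forming subunit 2.23-fold, higher in control replicates 1 and 3 than after IGF1, against 1.2-fold for the subunit that both need.

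Succinate dehydrogenase is both a cycle enzyme and complex II of the respiratory chain. Its flavoprotein gene Sdha was at 219, 77.3 and 223 FPKM in the controls and at 54.8, 56.3 and 56.9 FPKM after IGF1, a log2 fold change of -1.46 ± 0.42 with a limma adjusted p = 0.0529, just short of the threshold, and it was called lower without control replicate 2 (-1.96 ± 0.03). Sdhb, the iron-sulfur subunit, was at 352, 560 and 357 FPKM in the controls and at 462, 442 and 454 FPKM after IGF1, where control replicate 2 was the highest library of all. The direction for Sdhb depended on the scaling, with a log2 fold change of 0.13 ± 0.22 as deposited and of -0.42 with quantile normalization.

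As deposited, the membrane anchors Sdhc and Sdhd had smaller log2 fold changes than Sdha. With length and GC trends removed, Sdhc (-1.15) was called lower by limma, while Sdha (-0.93) and Sdhd (-0.37) were not. Sdhc was at 231, 279 and 237 FPKM in the controls and at 220, 226 and 228 FPKM after IGF1, and Sdhd at 313, 313 and 299 FPKM in the controls and at 253, 260 and 248.9 FPKM after IGF1. The IGF1 libraries were below the controls for both, by log2 fold changes of -0.14 ± 0.12 and -0.28 ± 0.11 that missed the threshold, and their values turned on the scaling. At the 75th percentile they were 0.13 and -0.0062, and with quantile normalization -0.39 and -0.75, where both passed an adjusted p under 0.05 by limma (0.0477 and 0.0451). Sdhaf2, which attaches the flavin to SDHA, was at 23.4, 20.1 and 25.2 FPKM in the controls and at 13.9, 13.1 and 12.8 FPKM after IGF1. Its log2 fold change of -0.74 ± 0.12 passed the limma test with the smallest adjusted p of all members, 0.0307, short of 2-fold. With length and GC trends removed, the log2 fold change of Sdhaf2 was -0.084 and did not pass (limma adjusted p = 0.633).

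Fumarase (Fh1) was at 99.3, 101 and 103 FPKM in the controls and at 77.5, 75.3 and 74.9 FPKM after IGF1, a log2 fold change of -0.41 ± 0.09 that passed the limma test (adjusted p = 0.0409). Mdh1, the cytosolic malate dehydrogenase of the malate-aspartate shuttle, was at 261, 229 and 260 FPKM in the controls and at 177, 183 and 180 FPKM after IGF1, a log2 fold change of -0.47 ± 0.11 (limma adjusted p = 0.0443). The mitochondrial Mdh2, which closes the cycle and had the highest control mean of all members at 427 ± 13.1 FPKM (SD, n = 3), was at 358 ± 9.41 FPKM after IGF1 (limma adjusted p = 0.129). For these genes control replicate 2 was nearer the other controls than the IGF1 mean, as it was for 8 of the members whose IGF1 libraries were all below the controls. Among these 8, it stood above both other controls for Sdhc (279 FPKM against 231 and 237). The size of the differences of Fh1, Mdh1 and Mdh2 depended on the processing. Their log2 fold changes were -0.13, -0.19 and 0.02 at the 75th percentile, and -0.38, -0.73 and -0.82 with quantile normalization. With length and GC trends removed they were -0.22, -0.062 and -0.65 (limma adjusted p = 0.0598, 0.457 and 0.0377), so that Fh1 and Mdh1 no longer passed.

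Me2, the mitochondrial malic enzyme that makes pyruvate from malate, was at 23.1, 9.14 and 23.6 FPKM in the controls and at 6.57, 6.17 and 6.40 FPKM after IGF1, a log2 fold change of -1.30 ± 0.36 with a limma adjusted p = 0.0509, and was called lower without control replicate 2. D2hgdh, which clears D-2-hydroxyglutarate by returning it to 2-oxoglutarate, was at 5.14, 2.74 and 4.94 FPKM in the controls and at 4.77, 4.33 and 4.44 FPKM after IGF1. Its groups overlapped because of control replicate 2, and its log2 fold change went from 0.10 with all libraries to -0.13 without that library.

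**Figure D2:**
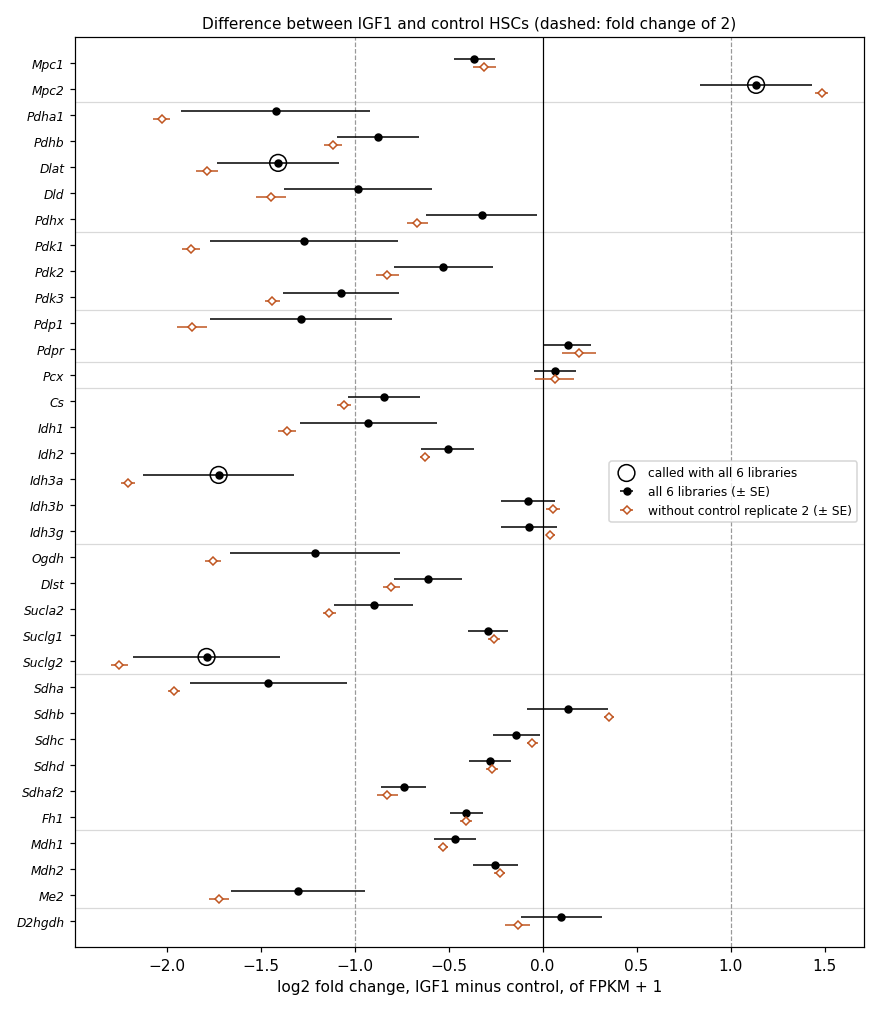
Log2 fold change (IGF1 minus control, of FPKM + 1) with its SE for each member, with all 6 libraries in black and without control replicate 2 in orange, dashed lines at a fold change of 2 and rings around the 4 called genes. Without control replicate 2 most points move away from 0 and their error bars shrink, and 15 members are called lower and 1 higher.

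The log2 fold changes of subunits of the same enzyme were thus unequal, and 8 ratios of partner genes were compared within each library, a choice made after the values were seen. The ratio of FPKM cancels any scaling of a whole library, but not trends on gene length and GC content, in which partners can differ. With those trends removed, the log2 fold changes were 0.50 and 0.21 for Mpc2 and Mpc1, and -0.93 and -0.33 for Sdha and Sdhb. They were -1.14 and -0.16 for Idh3a and Idh3g, -0.30 and -1.16 for Sucla2 and Suclg2, and -0.84 and 0.26 for Dlat and Pdhx. Sdha over Sdhb was 0.622, 0.138 and 0.624 in the controls and 0.119, 0.127 and 0.125 after IGF1. Idh3a over Idh3g was 0.344, 0.1003 and 0.359 in the controls and 0.0724, 0.0723 and 0.0710 after IGF1, and Sucla2 over Suclg2 was 1.43, 2.35 and 1.43 in the controls and 3.29, 3.23 and 3.33 after IGF1. In these pairs no IGF1 library overlapped a control, and control replicate 2 stood between the other controls and IGF1.

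Mpc2 over Mpc1 was 3.87, 7.28 and 4.03 in the controls and 12.96, 13.6 and 15.4 after IGF1. Dlat over Pdhx was 1.43, 1.22 and 1.21 in the controls and 0.568, 0.532 and 0.610 after IGF1, and here control replicate 2 was within the range of the other controls and the log2 difference was -1.17 with it and -1.21 without it. The 2-sided exact permutation test gave p = 0.1 for each of these 5 ratios, the smallest that 3 libraries against 3 can give, and 0.16 after Benjamini-Hochberg adjustment over the 8 ratios. The groups overlapped for Pdha1 over Pdhb, Idh1 over Idh2 and Mdh1 over Mdh2 (exact permutation p = 0.4, 0.4 and 0.2). The overlap came from control replicate 2, at 0.146, 0.0632 and 0.5195. Control replicates 1 and 3 were at 0.350 and 0.309, 0.128 and 0.124, and 0.628 and 0.613. The IGF1 libraries were at 0.157 to 0.171, 0.0691 to 0.0762 and 0.489 to 0.5205. Without control replicate 2 the log2 differences were -0.99, -0.80 and -0.30.

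**Figure D3:**
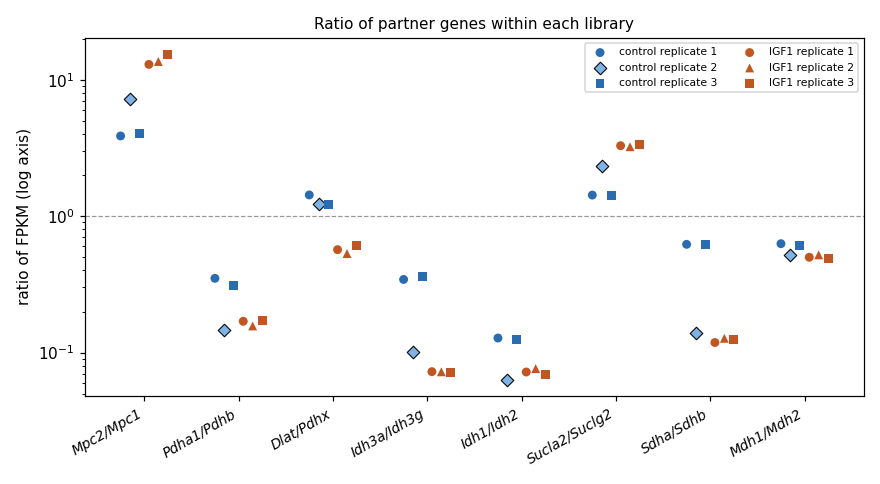
Ratio of the FPKM of partner genes in each library on a log axis, with a dashed line at 1, controls in blue, control replicate 2 as an outlined diamond, and IGF1 in orange. For Sdha/Sdhb and Idh3a/Idh3g the IGF1 points and control replicate 2 lie low, and for Dlat/Pdhx the 3 controls lie together above 1 and the IGF1 points lie between 0.532 and 0.610.

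Genes of the same pathway outside the members were described from 3 lists. Of 12 other cycle genes, 7 were tested and 0 were called by limma, with 2 lower at an adjusted p under 0.05 alone. Pdp2, the other phosphatase, was among them (log2 fold change -0.47 ± 0.13, limma adjusted p = 0.0492). Sdhaf4, an assembly factor of succinate dehydrogenase, was at 51.0, 90.9 and 47.2 FPKM in the controls and at 99.6, 107 and 101 FPKM after IGF1 (adjusted p = 0.0674). Without control replicate 2, 3 of the 7 were called lower and 1 higher.

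All 10 genes of lipoic acid and thiamine cofactors were tested, and 1 was called lower. The median of this list was 0.04, and 6 of the 10 genes lay above 0. Bola3, an iron-sulfur protein needed for lipoylation, was at 71.0, 150 and 64.0 FPKM in the controls and at 172, 172 and 165 FPKM after IGF1 (adjusted p = 0.0700).

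Of 21 genes of anaplerosis, carbon export and mitochondrial carriers, 16 were tested and 0 were called by limma, with 2 lower at an adjusted p under 0.05 alone and a median log2 fold change of -0.79. Ldha, which turns pyruvate into lactate, was at 1032, 786 and 1051 FPKM in the controls and at 481, 484 and 482 FPKM after IGF1 (log2 fold change -0.97 ± 0.18, limma adjusted p = 0.0355). Slc25a22, a glutamate carrier, had a log2 fold change of -0.77 ± 0.21 (adjusted p = 0.0490). Slc16a1, which carries lactate and pyruvate across the plasma membrane, was at 51.8, 7.14 and 51.9 FPKM in the controls and at 2.95, 3.81 and 3.68 FPKM after IGF1 (log2 fold change -2.67 ± 0.74, adjusted p = 0.0520). Without control replicate 2, 9 of the 16 were called lower and 0 higher.

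Markers of other blood cells also differed between libraries. The summed FPKM of 8 B cell genes was 111, 423 and 111 in the controls and 390 to 406 after IGF1, with Ms4a1 and Pax5 under 1 FPKM in all libraries. The 6 T and NK cell genes in the tables summed to 370, 780 and 359 FPKM in the controls and to 774 to 794 FPKM after IGF1, nearly all from Nkg7, with 1 of them called higher and Cd3e, Cd3d and Cd8a under 1 FPKM throughout. The 11 neutrophil and monocyte genes summed to 3265, 4721 and 3323 FPKM in the controls and to 4829 to 4849 FPKM after IGF1, although 4 of them were called lower.

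Megakaryocyte genes summed to 58.6, 77.9 and 58.0 FPKM in the controls and to 97.0 to 108 FPKM after IGF1, with 1 of 7 called higher. Most of the added sum came from Pf4, at 15.6, 48.6 and 15.1 FPKM in the controls and 63.1 to 73.7 FPKM after IGF1, while Itga2b was at 32.2, 16.8 and 32.3 FPKM in the controls and at 17.9 to 19.3 FPKM after IGF1. Erythroid genes summed to 34.1, 96.7 and 37.6 FPKM in the controls and to 45.6 to 51.3 FPKM after IGF1, with Alas2 and Slc4a1 among the genes under 1 FPKM in all libraries, and 6 of 7 stromal and endothelial genes were under 1 FPKM in all. The 12 stem cell genes summed to 559, 765 and 576 FPKM in the controls and to 510 to 526 FPKM after IGF1. The part of these cells in the differences of the members was not tested.

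Gene length and GC content also moved with the fold changes. The sums of FPKM over all listed genes were 466619, 635111 and 466135 in the controls and 677826 to 680285 after IGF1. Across the members the rank correlation of the log2 fold change with the GC content of the transcript was 0.66, and with gene length -0.42, against 0.40 and -0.22 across the 10352 tested genes with a matched transcript. These are correlations across genes of the same libraries, which are not independent replicates. Median length and GC content were 2600 bases and 48.1% for the members and 3245 bases and 50.1% for the tested genes. With trends of the fold change on both removed, the median log2 fold change was -0.36 over the members and -0.036 over the 10352 genes. Suclg2 (-1.16), Idh3a (-1.14) and Sdhc (-1.15), the shortest member at 596 bases, were then called lower by limma. Dlat (-0.84) was no longer past 2-fold. The part of length and GC content in the differences was not tested.

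**Figure D4:**
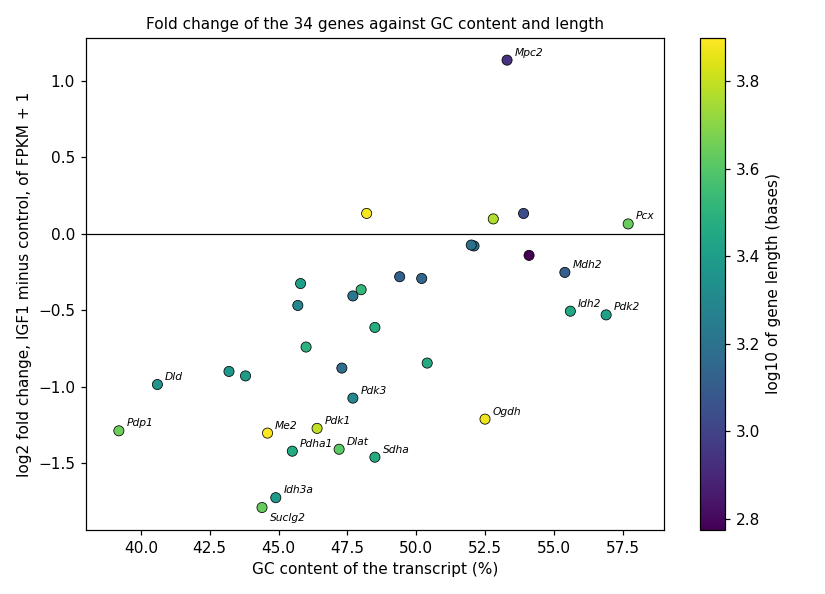
Log2 fold change (IGF1 minus control, of FPKM + 1) of each member against the GC content of its transcript in percent, with color for the log10 of gene length in bases. Suclg2 and Idh3a, at 44.4% and 44.9% GC, lie lowest, Mpc2 at 53.3% GC lies highest, and Ogdh at 52.5% GC is low for its GC content.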

How the data were processed

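RNA-seq libraries of sorted BM HSCs, 3 of vehicle control and 3 of IGF1-treated mice, were grouped as labelled. The authors prepared stranded mRNA libraries, trimmed reads with fastp and, per the methods of the study, quantified genes with RSEM. The submitters' processing notes name HISAT2, StringTie and GRCm38 (mm10) instead, so that the quantifier is uncertain. The deposited tables of the authors hold 1 value for each symbol in a library, taken as FPKM from their steps and sums, since no source used here names the unit. How reads shared with pseudogenes or overlapping genes were divided was not given in the sources used here.

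Relative depth was recovered from the steps in which the FPKM of a gene rises, which made the values of all 12620 of 12620 genes above 0 in every library whole numbers of reads within 0.02 (5.28% of jittered rows). Gene length was that implied by reads and FPKM, and GC content that of the GENCODE vM21 transcript nearest in length, which was within 10% of it for 55.9% of members. Genes that reached 1 FPKM in 3 or more libraries were tested on log2(FPKM + 1), a scale that understates changes of low genes, with limma 3.58.1 in R 4.3.3 (lmFit, eBayes with trend) and Benjamini-Hochberg adjustment over 10449 genes. Genes were called at a fold change over 2 and an adjusted p under 0.05, the thresholds of the study. The fit and the depth recovery were tested on simulated data. Replicate numbers were checked for pairing, and same-numbered libraries did not deviate together (correlations -0.06, -0.05 and 0.01).

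Alternatives were quantile and 75th percentile scaling, testing all genes or only those from 5 FPKM, adding 0.1 or 5 in place of 1, a replicate block, leaving out each library, removing length and GC trends and dropping the fold threshold. Scaling and trend removal without control replicate 2 were added after seeing the data. The members, lists and tests were chosen with earlier results of these data known. All members are named. From the pathway lists the called genes and those with the smallest adjusted p were to be named, some of which, with a few marker genes, are not reported here, and Sdhaf4, Bola3 and Pdk4 were added after their values were seen. The marker genes named one by one were likewise chosen after their values were seen.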

Additional observations from a re-analysis of the deposited data

How the results depend on the processing

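The counts turned on the control libraries. Without 1 library at a time, 0 to 1281 genes were called higher and 0 to 2157 lower, and 0 to 1 members were called higher and 0 to 15 lower, where the upper ends are those without control replicate 2. The median log2 fold change of the members then ranged from -0.82 to -0.47. With a replicate block, 0 genes and 0 members were called, with 4791 genes and 21 members at an unadjusted p under 0.05 by limma. Whether the replicate numbers pair the libraries was not settled, since the distance of control replicate 2 dominates the control deviations in the pairing check. With all 6 libraries, the adjusted p of the 4 called members stayed between 0.0325 and 0.0851 when no library was left out, and between 0.147 and 0.165 without a library other than control replicate 2.

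Quantile normalization called 319 genes lower and 304 higher, with 4 members lower (Me2 added, at -1.02) and 1 higher. The median log2 fold change was then -0.73 over the members and -0.02 over all genes. Scaling to the 75th percentile moved the median of all genes from -0.18 to 0.06, called 392 genes higher and 210 lower, and gave the members a median of -0.32, which lies below the median of all genes by about as much as without scaling. No filter gave 109 higher and 265 lower, with 0 and 1 members (Suclg2), more genes being tested. A pseudocount of 5 gave 66 and 157, with 0 members higher. Removing length and GC trends left 163 genes higher and 125 lower, and 0 members higher (3 lower, with Sdhc in place of Dlat). The median was then -0.36 over the members and -0.036 over all genes. Pdhb, Sucla2, Sdhaf2, Fh1 and Mdh1, which passed an adjusted p under 0.05 by limma as deposited, no longer passed. Without the fold threshold 654 genes were higher and 1476 lower, 9 members among them. Without control replicate 2, scaling gave 1879 and 1240, with 12 members lower, and trend removal 1066 and 888, with 0 members higher and 11 lower. The cause of these shifts was not tested.

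Signs turned for several members, some near 0 as deposited and others not, such as Mpc1 (-0.36), Pdhx (-0.32) and Sdhaf2 (-0.74). With scaling, Idh3b (0.19), Idh3g (0.20), Sdhc (0.13) and Mdh2 (0.022) were above 0, and with scaling and without control replicate 2 Mpc1 (0.019), Idh3b (0.40), Idh3g (0.39), Suclg1 (0.087), Sdhc (0.29), Sdhd (0.077) and Mdh2 (0.12). Leaving out 1 library gave -0.15 to 0.054 for Idh3b, -0.13 to 0.040 for Idh3g and -0.13 to 0.225 for D2hgdh, which turned without control replicate 2, and -0.016 to 0.12 for Pcx, which turned without IGF1 replicate 1. With trends removed Mpc1 (0.21), Pdhx (0.26) and Sdhb (-0.33) turned, as did Mpc1 (0.48), Pdhx (0.10), Sdhb (-0.32) and Sdhaf2 (0.051) without control replicate 2 as well. Sdhb was at -0.42 with quantile normalization. A minimum of 5 FPKM and a pseudocount of 0.1 turned 0 members.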
